A study of Mus musculus with 3 samples.

Results

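Single heart cells collected 1 day after tamoxifen were arranged by the amount of Ino80 transcript in each well, and the 183 wells with the most Ino80 were compared with the 297 wells with the least. The 3 libraries of the study held 3394 wells in all, of which 1232 were from day 1. Of these, 1225 had at least 1000 counts and 300 genes. Macrophage genes (Lyz2, C1qa, C1qb and C1qc, summed) reached 1000 CPM in 99 wells and fibroblast genes (Dcn, Col1a1, Col3a1 and Lum) did so in 169, with 7 wells in both sets, and these 261 wells were dropped. CPM are counts per 1000000 counts of nuclear-encoded mouse genes in the same well or group of wells. Among the 964 wells left, Ino80-high wells had at least 4000 CPM of Ino80, Ino80-low wells had less than 1600 CPM, and the 484 between them are called Ino80-middle. The wells were thus chosen by their own measured Ino80, and the dropping rule used the 8 marker genes above. The wells nearest to the upper limit held 3985, 3987, 3995, 4011, 4015 and 4038 CPM, and those nearest to the lower limit held 1595, 1597, 1599.91, 1600.11, 1601 and 1605 CPM, so the limits cut a continuous range.

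All these wells share 1 library and 1 label set: heart, adult cardiomyocyte, genotype D1_INO80_OE, treatment written as "tarmoxifen". The series title gives the line as Myh6-MCM;Ino80fl/fl, and the design text speaks of inducing Ino80. How a floxed allele and an induction go together is not given in these labels. The day 2 library is labelled D2_INO80_OE, and the day 3 library carries both D3_INO80_OE and D3_Ctrl with no map from wells to either. The labels do not say how many animals were pooled, and day 0 was not analysed here. With 1 library and no untreated wells there is no replicate, so no test was made. Intervals of levels and ratios cover the counting of reads and intervals of shares cover the counting of wells in this library, and neither covers the spread between animals or libraries. Cell barcodes recurred between libraries: 278 were shared by days 1 and 2, 268 by days 1 and 3, 247 by days 2 and 3, and 67 by all 3.

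INO80 is an ATP-driven machine that slides and edits nucleosomes around promoters and replication forks. Ino80 encodes its motor subunit, and Ruvbl1, Ruvbl2, Actr5, Actr8 and other proteins complete the complex. The Myh6 promoter is active in heart muscle cells, and the MCM protein it drives is a Cre recombinase fused to a mutated estrogen receptor that enters the nucleus when tamoxifen binds.

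Ino80 (chr2:119373042-119477687, minus strand, mm10) was the value the wells were selected on, so its levels are a description with no test. The lowest, median and highest well held 0, 1088 and 1599.91 CPM in the low group. In the middle group these were 1600.11, 2523 and 3995 CPM, and in the high group 4011, 5273 and 11299 CPM. Summed over wells, Ino80 stood at 1063 CPM (95% Poisson interval 1056 to 1071) on the low side and 5568 CPM (5546 to 5591) on the high side. The dropped wells were not free of it: summed Ino80 was 2317 CPM in macrophage-marked wells and 2299 CPM in fibroblast-marked wells. Those wells also held the cardiomyocyte transcript Ttn, with medians of 8730 and 9011 CPM, so they are no background free of cardiomyocyte RNA.

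Depth was nearly the same along the Ino80 order, whereas the mitochondrial share was not. Median counts per well were 331760 in low, 313050 in middle and 333239 in high wells. Mitochondrially encoded genes took a median 38.5% of the mouse counts in low wells, 40.5% in middle wells and 44.5% in high wells, with quartiles of 35.2 to 41.8% and 38.7 to 49.5% at the low and high ends. Across the 964 wells, which share 1 library, Spearman's rho with Ino80 was 0.0056 for counts and 0.33 for the mitochondrial share. High wells also had more genes detected, with medians of 3103, 3219.5 and 3498 in low, middle and high wells. When every well was thinned to 100000 counts, leaving out 20, 41 and 10 shallower wells, the medians were 2438, 2466 and 2748 genes.

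**Figure D1:**
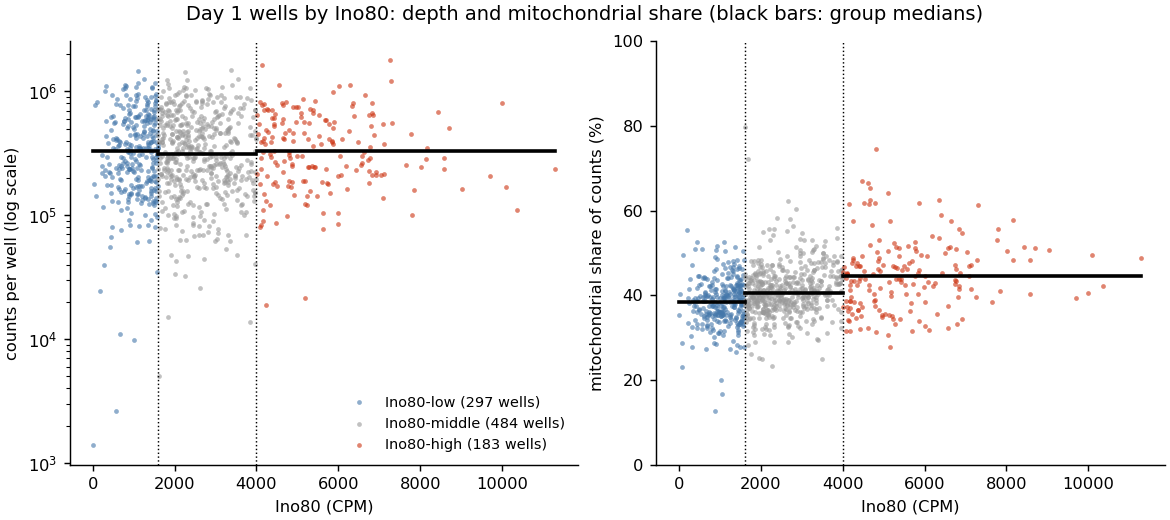
Counts per well (left, log scale) and the percentage of counts from mitochondrially encoded genes (right) against Ino80 in CPM, 1 point per well; dotted lines mark 1600 and 4000 CPM and black bars the group medians. The depth bars lie at 331760, 313050 and 333239 counts, while the mitochondrial bars step from 38.5% through 40.5% to 44.5%.

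Transcripts of the labelled cell type were present on every side. The 12 ventricular cardiomyocyte markers, among them Myh6, Tnnt2 and Actn2, summed to a median of 86595 CPM in low wells, 89267 CPM in middle wells and 92688 CPM in high wells, and no marker was at 0 in any group. The lowest single well still had 21180 CPM on the low side and 61894 CPM on the high side. Presence of these transcripts does not establish the cell type of a well. Ryr2, also on this marker list, had a summed level of 827 CPM in the dropped macrophage-marked wells, beside 693 CPM in low wells. Wells passing the endothelial limit (Pecam1, Cdh5, Egfl7 and Cldn5 at 1000 CPM or more together) numbered 12 of 297, 13 of 484 and 3 of 183 in low, middle and high wells. Atrial RNA was uneven too: Sln reached 10000 CPM in 10 low, 10 middle and 2 high wells.

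Ttn, which encodes titin, the giant spring of the sarcomere, was the one abundant gene among the 12 with the highest ratios. Its lowest, median and highest well values were 293, 7107 and 45194 CPM in low wells, 2847, 9204 and 80397 CPM in middle wells, and 3334, 32113 and 91285 CPM in high wells. The groups overlapped, but the low side's upper quartile of 9283 CPM lay under the high side's lower quartile of 21012 CPM. Summed, Ttn (chr2:76703980-76982547, minus strand, mm10) went from 8299 CPM on the low side to 33049.5 CPM on the high side, a log2 ratio of 1.99 (interval 1.99 to 2.00).

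Of the 964 wells, 438 had Ttn between 5000 and 10000 CPM, 170 had between 10000 and 20000 CPM, and 257 had 20000 CPM or more. These ranges differ in width, and the wells showed no gap at 20000 CPM. There were 52 wells from 15000 to 20000 CPM, 48 from 20000 to 25000 CPM and 50 from 25000 to 30000 CPM. A limit of 20000 CPM, chosen after the values were seen, was passed by 11 of 297 low wells (3.70%, exact 95% interval 1.86 to 6.53), 106 of 484 middle wells (21.9%, 18.3 to 25.9) and 140 of 183 high wells (76.5%, 69.7 to 82.4). With the wells ordered by Ino80 and divided into 6 equal groups, the share was 1.86%, 7.45%, 11.8% and 16.8% in the 4 lower groups, then 43.1% and 79.4% in the upper 2, where Ino80 was 3038 CPM or more. Median Ttn went from 6816 CPM in the lowest of these groups to 8548 CPM in the fourth, 13930.1 CPM in the fifth and 34709 CPM in the highest. The class is a range of one transcript, not a cell type, and 170 wells lie in the stretch just under its limit.

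**Figure D2:**
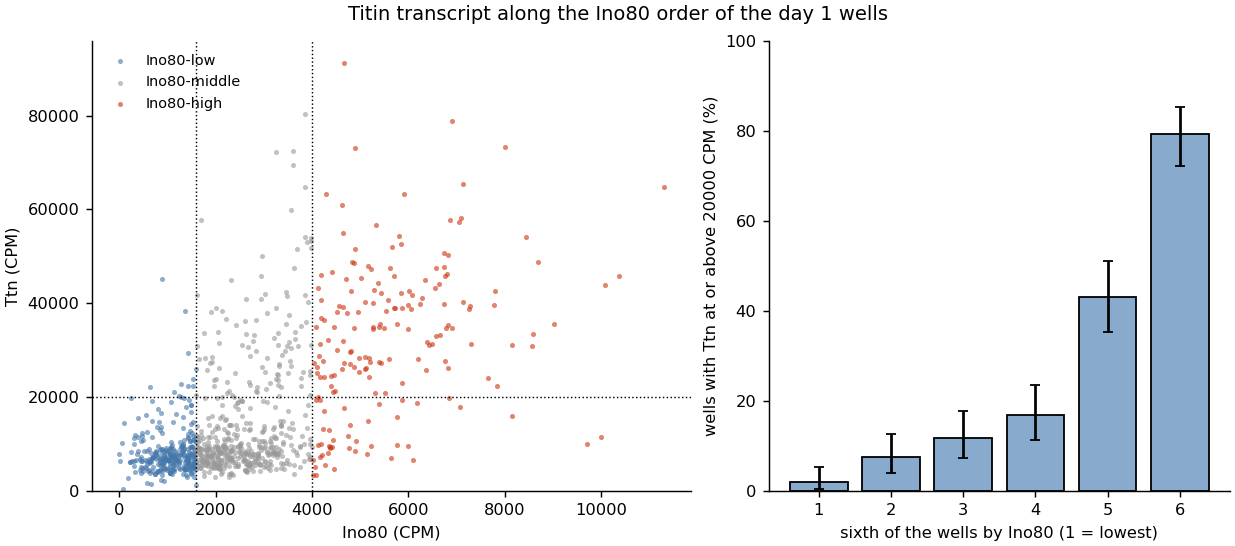
Left, Ttn (CPM) against Ino80 (CPM) for the 964 day 1 wells, dotted lines at the Ino80 limits and at 20000 CPM of Ttn; right, the percentage of wells at or above 20000 CPM of Ttn in 6 equal groups by Ino80, with exact 95% binomial intervals. Bars stay at or under 16.8% in the 4 lower groups and reach 43.1% and 79.4% in the upper 2.

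Over all genes with a mean of at least 10 CPM, high wells held more genes above than below the low wells. Of 6516 genes, 1177 were at least 2-fold higher on the high side (18.1%) and 257 at least 2-fold lower (3.94%). The median gene was itself 0.26 higher on the log2 scale, so the split depends on the scaling: 82.1% of the called genes were higher here, 72.3% with the total over all mouse genes (607 higher, 233 lower, among the 4933 genes that reach 10 CPM on that scale) and 59.4% with a median-of-ratios factor (750 higher, 513 lower). That factor lowers every log2 ratio by 0.26, and list values below are best read against this shift. In middle wells only 195 genes (3.14%) were 2-fold above and 143 (2.30%) 2-fold below the low wells. The middle level lay between the 2 ends for 1005 of the 1177 higher genes (85.4%) and 208 of the 257 lower genes (80.9%). These genes were chosen for ends that differ 2-fold in this same library, so a middle level between them is largely built in. For the higher genes the median log2 ratio was 0.50 in middle and 1.37 in high wells, and for the lower genes -0.63 and -1.30.

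The direction of a gene tracked the length of its transcript. In 10 equal bins of genes by longest annotated transcript, the median log2 ratio was -0.43 in the bin up to 1232 nucleotides and 0.85 in the bin from 7179 nucleotides, with each bin above the one before it. In the shortest bin 1.68% of genes were 2-fold higher and 7.96% 2-fold lower, and in the longest 41.6% and 1.53%. The median transcript length was 4942 nucleotides among higher genes, 2277 among lower genes and 3405 among all 6516, and Ino80 itself has 6354. Spearman's rho across genes, which are not independent, was 0.47. Applying the same Ino80 limits gave -0.39 in the shortest and 0.90 in the longest bin on day 2 (rho 0.42 over 6509 genes). On day 3 these bins stood at 0.08 and 0.43 (rho 0.099 over 6237 genes). The day 3 medians did not rise at each step, and the highest, 0.56, lay in the bin from 4527 to 5471 nucleotides. Taking each gene's ratio relative to genes of like length left 480 genes 2-fold higher and 476 lower, 452 and 194 of them among the genes called above. Whether length plays a part in how well a transcript was counted was not tested.

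**Figure D3:**
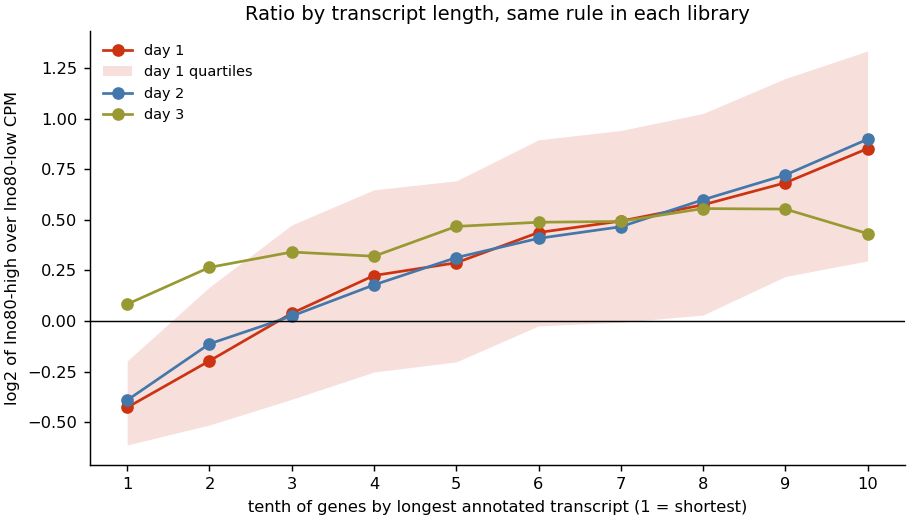
Median log2 ratio of Ino80-high over Ino80-low CPM in 10 equal bins of genes by longest annotated transcript, for the same Ino80 limits in each library; the shaded band spans the quartiles of day 1. The day 1 line climbs from -0.43 to 0.85 and the day 2 line from -0.39 to 0.90, whereas the day 3 line spans a narrower range.

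The 12 genes named as highest were Abl2, Pdgfa, Rnf150, Smim13, Bcl9l, Akap6, Atmin, Washc5, Uba6, Camsap1, Kcnj12 and Ttn. Apart from Ttn they were sparse, with a median of 0 CPM per well on both sides, so the share of wells with a count says more than the fold. Abl2, a cytoskeletal tyrosine kinase, had counts in 17.2% of low and 38.8% of high wells, at 10.2, 34.7 and 83.5 CPM in summed low, middle and high wells (log2 3.03, interval 2.92 to 3.15). Pdgfa, a platelet-derived growth factor chain, had counts in 21.2% and 33.9% of wells and stood at 12.8, 23.5 and 95.3 CPM (log2 2.90). Bcl9l, a coactivator of beta-catenin, had counts in 16.8% and 48.6% of wells at 5.40, 18.8 and 44.5 CPM (log2 3.04). These 3 genes had more wells with a count at each step of Ino80, but 1 well supplied 39.1% of the Abl2 counts of the low side and 1 supplied 20.4% of the Pdgfa counts of the high side.

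Akap6 and Kcnj12 are known from heart muscle. Akap6, an anchoring protein of the nuclear envelope that gathers kinases and calcium channels, stood at 11.4, 26.7 and 71.7 CPM in low, middle and high wells (log2 2.65) and had counts in 21.2% of low and 44.3% of high wells. Kcnj12, an inward-rectifier potassium channel, stood at 7.82, 9.74 and 47.8 CPM (log2 2.61), so nearly all of its difference lay between middle and high wells. Camsap1, which holds microtubule minus ends, stood at 10.1, 19.5 and 57.6 CPM (log2 2.51). Uba6, a ubiquitin-activating enzyme, and Washc5, a subunit of the endosomal WASH complex, had log2 ratios of 2.89 and 2.86. Rnf150, Atmin and Smim13 had log2 ratios of 3.55, 2.98 and 2.90, but Rnf150 and Atmin turned to -1.26 and -2.03 among wells with Ttn under 20000 CPM.

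Genes named as lowest were Sln, Tmem204, Mustn1, Lgals9, Irf2, Ecm1, Kdr, Hdac7, Metap1d, Cytl1, Slc43a3 and Egfl7. Sln encodes sarcolipin, a brake on the calcium pump SERCA that is typical of atrial muscle. It had lowest, median and highest wells of 0, 1351 and 93127 CPM on the low side, 0, 983 and 56404 CPM in the middle, and 6.26, 741 and 57929 CPM on the high side. The summed log2 ratio was -1.75 (interval -1.76 to -1.73), while the wells overlapped almost entirely and 1 well gave 30.3% of the high side's Sln. Without wells marked by other cell types, those with 10000 CPM of Sln included, the ratio was -0.59.

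Kdr, the main VEGF receptor of endothelium, stood at 59.4, 34.0 and 18.3 CPM in low, middle and high wells (log2 -1.70). Egfl7, an endothelial secreted factor, stood at 96.4, 75.8 and 35.1 CPM (log2 -1.46). Among wells with Ttn from 10000 to 25000 CPM, which are only 33 high and 60 low, Kdr, Egfl7 and Hdac7 turned to 1.25, 0.12 and 0.57. Tmem204, a membrane protein of endothelial cells, stood at 64.6, 39.9 and 17.4 CPM (log2 -1.89), and Lgals9, the lectin galectin-9, at 33.2, 14.4 and 7.57 CPM (log2 -2.13). Irf2, Mustn1, Ecm1, Metap1d, Cytl1 and Slc43a3 had log2 ratios between -2.09 and -1.55. Leaving out endothelial-marked wells brought 3 further genes into the lowest 12, Tppp3, Btnl9 and Gucy1a1 (log2 -1.21, -1.57 and -1.68 over all wells), and left 1200 genes 2-fold higher (18.5%) and 256 lower (3.94%).

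Gene lists were measured over members with a mean of at least 5 CPM, of which there were 8422 among all genes, with a median log2 ratio of 0.26 and 61.3% above 0. Other chromatin remodellers stood highest of the larger lists: 22 of 23 measured members were higher in high wells, 6 of them 2-fold, with a median of 0.81. Chd1, a remodeller of transcribed genes, stood at 10.4, 29.7 and 40.1 CPM in low, middle and high wells (log2 1.94). Ep400, the motor of the TIP60 complex, stood at 11.2, 12.2 and 37.4 CPM (log2 1.74), and Chd2 and Chd8 had log2 ratios of 1.22 and 1.15. Chd1 and Ep400 were sparse, with counts in 16.2% and 19.5% of low wells and 31.7% of high wells for each. Chd8 had counts in 29.6% of low, 23.6% of middle and 32.8% of high wells, and 1 well gave 23.0% of its high-side counts. The remodellers have long transcripts, with a list median of 8187 nucleotides. Relative to genes of like length the list median was 0.04, and among wells with Ttn under 20000 CPM (43 high, 286 low) it was -0.10.

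The partners of Ino80 differed in both directions. Without Ino80, 10 members of the complex were measured, 5 higher and 5 lower, with a median of -0.02. Yy1, the DNA-binding subunit, stood at 30.7, 36.0 and 58.3 CPM in low, middle and high wells (log2 0.92), and Ino80c at 15.5 CPM on the low and 27.2 CPM on the high side (log2 0.81). Actr8, an actin-related subunit that contacts nucleosomes, had a log2 ratio of 0.59. The helicase Ruvbl1 stood at 19.1, 12.7 and 11.1 CPM (log2 -0.79), Mcrs1 at 19.3, 12.6 and 11.5 CPM (log2 -0.75), and the deubiquitinase Uchl5 was flat at 71.6, 76.3 and 72.5 CPM (log2 0.02). Actb, which the complex shares with the cytoskeleton, stood at 450 CPM on the low and 249 CPM on the high side (log2 -0.86). The other 5 members had means under 5 CPM: Actr5, Ino80e, Tfpt and Ruvbl2 were under 2 CPM on both sides. Actl6a, an actin-related subunit, stood at 0.611 CPM in low, 8.99 CPM in middle and 6.88 CPM in high wells (log2 3.49, interval 3.04 to 3.98), but it had counts in 13 of 297 low and 9 of 183 high wells, and 1 well gave 47.1% of the high side's counts.

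Of the features tied to the genetic design, Gt(ROSA)26Sor and Esr1 were higher in high than in low wells. Gt(ROSA)26Sor, the noncoding transcript of the locus often used for transgenes, had well medians of 7.44, 18.8 and 98.0 CPM in low, middle and high wells and summed levels of 52.7, 68.8 and 155 CPM (log2 1.55). Its longest transcript has 1181 nucleotides, a length at which most genes were lower in high wells, and its exons overlap Thumpd3 on the opposite strand. Esr1, whose reads may include the receptor part of MCM, had well medians of 327, 367 and 464 CPM, with a highest well of 2046, 2319 and 2269 CPM, and a summed log2 ratio of 0.45 (0.42 to 0.47). Its longest transcript has 6339 nucleotides. Genes of 5517 to 7177 nucleotides had a median log2 ratio of 0.68, so Esr1 lay below the median gene of like length. On day 2 the log2 ratio of Esr1 was 0.01. Over the 6 equal groups by Ino80 its medians were 303, 345, 417, 377, 334 and 464 CPM, so it did not climb at each step. Spearman's rho with Ino80 over the 964 wells was 0.25 for Gt(ROSA)26Sor and 0.12 for Esr1. The added sequence EGFP had counts in 14 of 297 low wells (4.71%, interval 2.60 to 7.78), 28 of 484 middle wells (5.79%) and 11 of 183 high wells (6.01%, 3.04 to 10.5), beside 3 of 99 macrophage-marked wells (3.03%). These intervals overlap, and 1 well gave 71.7% of the high side's EGFP counts. The added sequence 3xFlag had counts in 0 of 297 low wells, where 3 wells would be a share of 1.01% and the exact interval reaches 1.23%, in 4 of 484 middle wells and in 4 of 183 high wells (2.19%, 0.599 to 5.50).

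Genes of electrical excitation and calcium release included several with large ratios. Of 18 ion channel genes measured, 13 were higher, 8 of them 2-fold, with a median of 0.80. Kcnk3, a background potassium channel, had well medians of 32.9, 65.5 and 198 CPM in low, middle and high wells (log2 1.58), and its highest well lay on the low side, at 3344 CPM beside 1556 CPM on the high side. Kcnj11, the pore of the ATP-sensitive channel, had a log2 ratio of 1.37. Among calcium cycling genes 13 of 19 were higher, a share near the 61.3% of all genes, with a median of 0.50. Ryr2, the calcium release channel, had well medians of 554, 708 and 1896 CPM (log2 1.52), Srl of 112, 190 and 548 CPM (log2 1.52) and Jph2, which ties the release channel to the cell membrane, of 0, 4.38 and 38.8 CPM (log2 1.53). The summed level of the ion channel list had well medians of 2023, 2245 and 3054 CPM. Relative to genes of like length, the ion channel median was 0.49 and the calcium cycling median 0.01, among wells with Ttn under 20000 CPM they were 0.31 and 0.12, and among wells with Ttn from 10000 to 25000 CPM 0.14 and -0.03.

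Sarcomere genes and the ventricular markers were higher by less. Of 26 sarcomere genes 19 were higher, 2 of them 2-fold (Ttn and Mypn), with a median of 0.44. That median was 0.05 relative to genes of like length and 0.17 among wells with Ttn under 20000 CPM. Myh6, the fast cardiac myosin, had lowest, median and highest wells of 1365, 10154 and 27254 CPM on the low side and 6256, 17861 and 33779.0 CPM on the high side, with a middle median of 11663 CPM. Its summed log2 ratio was 0.81, and its rho with Ino80 was 0.51 over the 964 wells, beside 0.56 for Ttn. Mybpc3, myosin-binding protein C, had well medians of 1893, 2160 and 3325 CPM (log2 0.87). Cardiac transcription factors had a median of 0.48 (12 of 15 higher), with Tead1 at 1.06 and Gata6 at 0.75. That median was 0.12 relative to genes of like length, and it turned to -0.20 among wells with Ttn under 20000 CPM and to -0.10 among those from 10000 to 25000 CPM.

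The program of heart muscle stress stood close to the median gene. Of its 18 measured members 12 were higher and 6 lower, with a median of 0.15, and that median was -0.02 with the total over all mouse genes. Nppb, the brain natriuretic peptide, had summed levels of 193, 210 and 201 CPM in low, middle and high wells (log2 0.06), and its well medians in the 6 groups by Ino80 were 182, 158, 182, 156, 167 and 157 CPM. Nppa, the atrial natriuretic peptide, was lower (log2 -1.16), as were the atrial markers among which it is also counted. Long filament transcripts of the same list were higher: Flnc, filamin C, had well medians of 19.2, 40.6 and 155 CPM (log2 1.86) and Xirp2 of 381, 487 and 740 CPM (log2 1.20). On day 3 the same limits gave this list a median of 1.99, with 15 of 18 members higher, but day 3 wells with little Ino80 may be control or induced cells, which cannot be told apart.

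**Figure D4:**
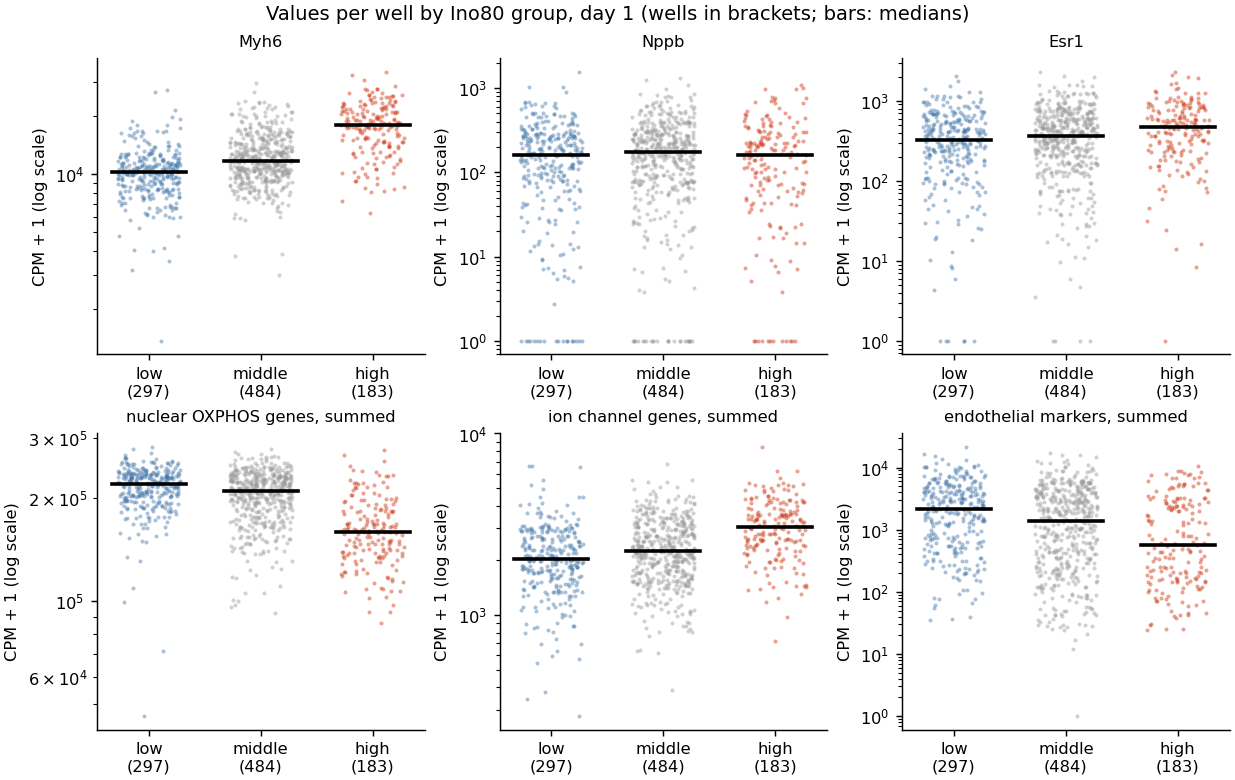
Values per well (CPM + 1, log scale) of Myh6, Nppb, Esr1 and the summed levels of 3 gene lists in Ino80-low, middle and high wells, 1 point per well with black bars at the medians. Myh6 and the ion channels step up, with Myh6 medians from 10154 to 17861 CPM, the nuclear-encoded oxidative phosphorylation (OXPHOS) genes and the endothelial markers step down, and Nppb lies level.

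Energy metabolism divided by gene group. The 68 nuclear-encoded oxidative phosphorylation genes, which build the respiratory chain, were nearly all lower in high wells: 60 lower and 8 higher, none by 2-fold, with a median of -0.42. Their summed level had well medians of 220237 CPM in low, 210299 CPM in middle and 159404 CPM in high wells. Cox6b1, a cytochrome oxidase subunit, had well medians of 4270, 3864 and 2633 CPM (log2 -0.57), and Atp5g1, a ring subunit of ATP synthase, of 12492.5, 11752 and 8099 CPM (log2 -0.59). In the same wells mitochondrially encoded genes were higher: on the scale of all mouse genes 9 of 10 were higher, with a median of 0.35. Relative to genes of like length the nuclear list's median was -0.05, and among wells with Ttn under 20000 CPM it was -0.06. Among wells with 30 to 45% mitochondrial counts (94 high, 250 low) it was -0.35.

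Fuel genes were mixed. Of 25 fatty acid oxidation genes 17 were higher (median 0.26, the median of all genes), led by Acadvl (1.63), Acsl1 (1.21) and Lpl (1.17). Acadvl was sparse, with counts in 12.8% of low and 20.2% of high wells, and 1 well gave 23.0% of its high-side counts. Lpl, which releases fatty acids from circulating lipid, had well medians of 3335, 3809 and 7070 CPM. Of 21 citric acid cycle genes 13 were higher (median 0.21), with Ogdh and Dlst, which form one enzyme complex, at 1.05 and 1.02. Ppara, a receptor that switches on fat burning, stood at 8.15, 13.5 and 39.5 CPM in summed low, middle and high wells (log2 2.28). It had counts in 12.8% of low and 26.2% of high wells, and 1 well gave 20.7% of its high-side counts. The fatty acid oxidation and citric acid cycle medians turned to -0.01 and -0.05 with the median-of-ratios factor.

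Protein synthesis and breakdown genes were lower. Of 40 cytosolic ribosomal protein genes 36 were lower (median -0.30), with Rpl27 at well medians of 218, 208 and 127 CPM (log2 -0.84) and Rpl5 at 78.3, 103 and 139 CPM in the other direction (log2 0.66). Of 26 proteasome genes 22 were lower (median -0.25), with Psmb2 at well medians of 172, 92.3 and 69.2 CPM (log2 -0.78). The median ribosomal transcript has 1114.5 nucleotides, and relative to genes of like length the ribosomal median was 0.06 and the proteasome median -0.15. The NRF2 antioxidant list had 14 of 21 members lower (median -0.34), including Gpx1 (-0.69) and Mt2 (-0.73). The 7 higher members included Txnrd1 (0.72) and Keap1, the sensor that restrains NRF2 (1.23).

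Clock genes were higher in 12 of 15 measured cases, 6 of them 2-fold, with a median of 0.78. Usp2, a deubiquitinase with daily rhythm, had well medians of 44.7, 74.8 and 250.0 CPM in low, middle and high wells (log2 1.58). Nfil3, Cry2 and Tef had log2 ratios of 1.27, 1.12 and 0.94. Relative to genes of like length the median was 0.26, and among wells with Ttn under 20000 CPM it was -0.21. Per2, named after its value was seen, stood at 1.55 CPM in low and 14.0 CPM in high wells and had counts in 8.42% of low wells.

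**Figure D5:**
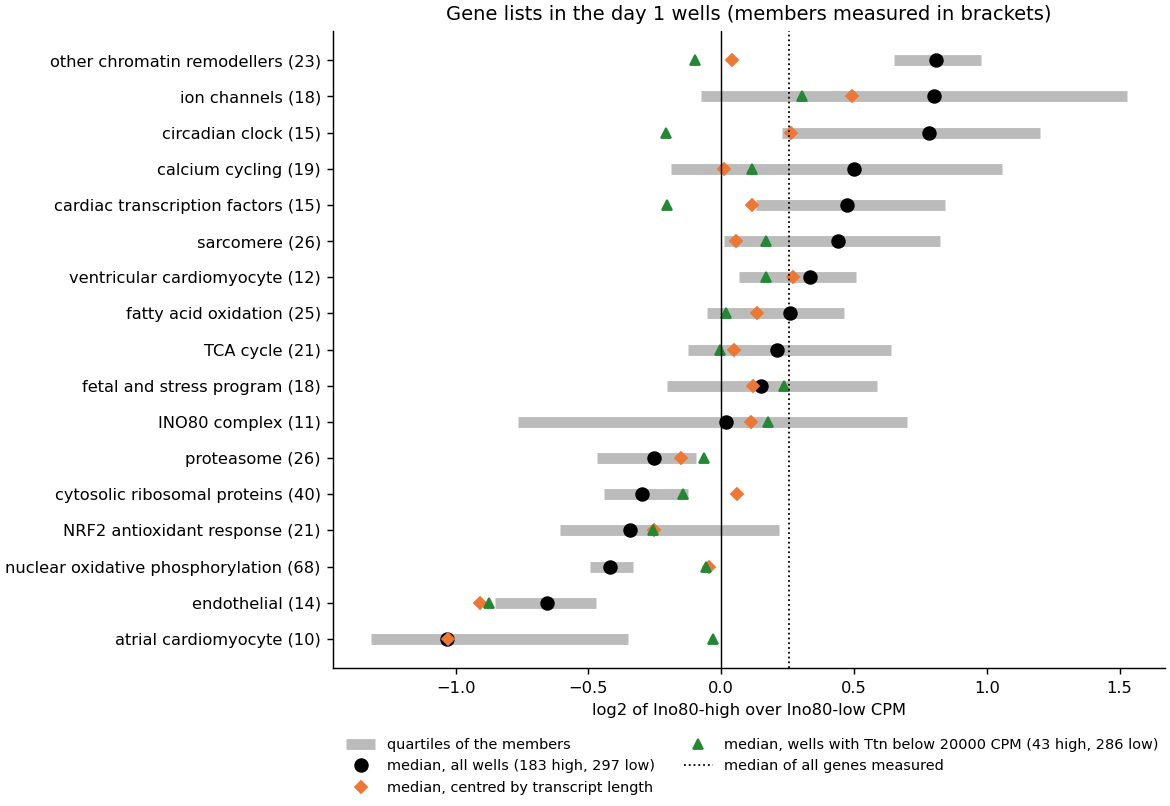
Median log2 ratio of 17 gene lists (black points, with grey bars over the quartiles of their members) beside the median relative to genes of like length (diamonds) and the median among wells with Ttn under 20000 CPM (triangles). The remodellers lie at 0.81, 0.04 and -0.10 on the 3 measures, OXPHOS genes at -0.42, -0.05 and -0.06, and endothelial markers at -0.66, -0.91 and -0.88; medians near 0 change sign with the scaling.

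Most lists of other cell types had medians below 0. Endothelial markers were lower in 13 of 14 measured cases (median -0.66), and their summed level had well medians of 2167, 1374 and 558 CPM in low, middle and high wells. The lowest and highest wells were 33.7 and 21795 CPM on the low side and 23.7 and 10821 CPM on the high side, so the ranges overlapped and no marker was at 0. Ly6c1, a surface protein of capillary endothelium, had well medians of 517, 247 and 115 CPM (log2 -0.90), while Pecam1 and Cdh5 had log2 ratios of -0.40 and -0.61. The list median was -0.56 without endothelial-marked wells, -0.91 relative to genes of like length and -0.88 among wells with Ttn under 20000 CPM. It was smaller, at -0.25, among wells with 30 to 45% mitochondrial counts and, at -0.23, among wells with Ttn from 10000 to 25000 CPM. Fibroblast markers were lower in 7 of 8 cases (median -0.55, summed well medians 374, 327 and 192 CPM), and macrophage markers in 5 of 6 (median -0.37, 42.0, 45.4 and 30.9 CPM), after both sets had been used to drop wells. Atrial markers were lower in 8 of 10 cases (median -1.03), with Myl7 at well medians of 566, 531 and 355 CPM. Their median was -0.04 without wells marked by other cell types, a setting that drops wells high in Sln, itself one of these markers. It was -0.03 among wells with Ttn under 20000 CPM. Summed levels per well did not fall for every list: endocardial and large-vessel markers (list median -0.82) had well medians of 178, 232 and 299 CPM in low, middle and high wells. Of 6 measured members of that list 5 were lower, and the 1 higher was Cpe, at 279 CPM in summed low and 368 CPM in summed high wells. Pericyte and smooth muscle markers (list median -0.38) had well medians of 290.2, 317 and 326 CPM, with Abcc9, a subunit of ATP-sensitive potassium channels, at a log2 ratio of 1.22. What part these transcripts have in the other differences was not tested.

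The Ttn classes and the Ino80 groups were then crossed. Among wells with Ttn under 20000 CPM, low, middle and high wells had median Myh6 of 10085.0, 10928 and 11606 CPM, summed OXPHOS genes of 222050.0, 218306 and 207429 CPM and a mitochondrial share of 38.3%, 39.6% and 41.3%. Among wells at or above it, of which only 11 were low, the same medians were 15700.1, 16205 and 19024 CPM, 176363, 161666 and 149489 CPM, and 46.7%, 45.2% and 45.5%. In each Ino80 group these medians differed more between the Ttn classes than between Ino80 groups within a class. Ino80 itself was not equal between the classes, with medians of 1076, 2392 and 4662 CPM below the limit and 1362, 3088 and 5437 CPM at or above it. The 11 low wells at or above it were also shallower, at a median of 172414 counts beside 340522 below it. What part Ttn or Ino80 has in these differences was not tested. Spearman's rho between Ino80 and summed OXPHOS genes was -0.06 over 707 wells below the limit and -0.35 over 257 above it. Endothelial markers had medians of 2195, 1493 and 606 CPM below the limit and 1614, 981 and 555 CPM above it, with weak correlations (rho -0.15 and -0.12). Below the limit, 43 high against 286 low wells gave 847 genes 2-fold higher and 670 lower, 365 and 149 of them among the genes called over all wells. Over all wells 18.1% of genes were called higher and 3.94% lower. Both sides are parts of the 183 high and 297 low wells compared before, so this overlap is partly built in.

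The same limits in the later libraries picked 500 high and 80 low wells of 842 on day 2, and 79 high and 548 low wells of 942 on day 3. On day 2, 1419 of 6509 genes were 2-fold higher (21.8%) and 376 lower (5.78%). Of the 1177 genes higher on day 1, 1034 were measured on day 2, and 487 were again 2-fold higher, which is 47.1% of those measured and 34.3% of the day 2 genes, while 10 were 2-fold lower. Of the 257 lower genes 192 were measured, 32 were again lower (16.7%, and 8.51% of the day 2 genes) and 18 were 2-fold higher. On day 3, with 27.4% of genes higher and 9.96% lower, 266 of 942 higher genes were again higher (28.2%), 94 were lower, and of 169 lower genes 19 were again lower and 44 higher. The mitochondrial share differed between the sides more on day 2 than on day 1, with medians of 24.3% in low and 47.5% in high wells.

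Members that carried the day 1 pattern had the following values in the later libraries. Low wells had a median Ino80 of 1088 CPM on day 1, 1210 CPM on day 2 and 19.2 CPM on day 3. Day 3 low wells may also be control or induced cells, so day 3 is not the same comparison at a later time. Summed Esr1 in low wells was 396 CPM on day 1, 407 CPM on day 2 and 6.78 CPM on day 3. In day 3 high wells it was 85.7 CPM. Which of the day 3 wells are control cells was not tested. Ttn had a log2 ratio of 1.99 on day 1, 1.35 on day 2 and -0.96 on day 3, and Myh6 of 0.81, 0.61 and -1.48. List medians on days 1, 2 and 3 were 0.80, 0.96 and -1.02 for ion channels, 0.50, 0.44 and -1.28 for calcium cycling, and 0.81, 0.57 and 0.52 for the chromatin remodellers. OXPHOS genes stood at -0.42, -0.39 and -0.35, and ribosomal protein genes at -0.30, -0.37 and 0.80. Endothelial markers stood at -0.66, -0.05 and 0.56. The share of wells with Ttn at or above 20000 CPM was 0 of 80 low and 138 of 500 high wells on day 2, and 181 of 548 low and 5 of 79 high wells on day 3.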

How the data were processed

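Wells were single heart cells dispensed, imaged and amplified on the iCELL8 platform, with Nextera XT libraries, per the labels' protocols. The authors deposited unnormalized counts, 1 whole number for each gene in each well. Cutadapt, STAR, featureCounts and mm10 are named in the submitters' processing notes, but software versions, strandedness and duplicate handling were not given in the sources used here. The counts were taken as reads, which without molecular tags may repeat 1 molecule, so intervals of levels cover counting error only. Doublets were not called. Library totals were 487461107, 452070922 and 484369736 counts on days 1, 2 and 3. Gene symbols, coordinates and transcript lengths came from GENCODE M21 (55141 of 55401 mouse identifiers matched).

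Counts were summed per group and divided by the nuclear-encoded total (CPM). Log2 ratios have exact 95% binomial-split intervals, shares exact Clopper-Pearson intervals, and a count of 0 was set to 3 counts in ratios. Called means at least 2-fold at a mean of at least 10 CPM. Scripts (Python 3.11.15, numpy 2.4.6, scipy 1.17.1, pandas 2.3.3) were tested on simulated data.

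Named genes are the 12 highest and 12 lowest log2 ratios with 5 CPM added, at a mean of at least 20 CPM, detected in 10% or more of the higher side's wells, with at most 25% of its counts from 1 well, over all wells and again without endothelial-marked wells, which gave 27 genes. Of these, 9 have exons overlapping another gene, 7 on the opposite strand. From each of 31 gene and 14 marker lists up to 4 members with the largest ratios may be named. Nppb, Pecam1, Cdh5 and Per2 lie outside these rules. Some list members chosen by these rules are not reported here. The wells, lists and rules were chosen with earlier results of these data known. The 11 planned and 4 added alternatives are given with the other observations.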

Additional observations from a re-analysis of the deposited data

Results flagged for a closer look

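Of the 27 named genes, 5 were at least 2-fold one way on day 1 and at least 2-fold the other way under the same Ino80 limits in a later library where their mean was at least 10 CPM, and none of these differences was tested. Day 3 low wells had a median Ino80 of 19.2 CPM, beside 1088 CPM on day 1, so the day 3 sides are unlike those of day 1. Rnf150, a ring-finger protein, was higher on day 1 (log2 3.55) and -1.29 on day 3. Washc5 also turned, from 2.86 to -1.83 on day 3, but lay under that minimum there (11.3 CPM in low and 3.18 CPM in high wells). Mustn1, a muscle nuclear protein, was lower on day 1 (-1.98) and stood at 2.51 on day 3. Irf2, an interferon regulatory factor, went from -2.09 on day 1 to 1.08 on day 3, and Ecm1, an extracellular matrix protein, from -2.01 to 1.61. Cytl1, a cytokine-like secreted protein, stood at -1.59 on day 1 and 4.74 on day 2, and 1 well gave 20.7% of its counts on the day 1 low side. On day 2 it had 0.726 CPM in low and 19.4 CPM in high wells, so its mean there lay close to the minimum of 10 CPM. Spike-in sequences, which no comparison used, took 160 counts over the 480 Ino80-high and Ino80-low wells.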

How the results depend on the processing

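No paired analysis was possible because there is 1 library per day and no replicate number. Depth was not limiting for abundant genes, but most named genes had counts in under 50% of wells. The 1177 higher and 257 lower genes became 607 and 233 with the total over all mouse genes, 750 and 513 with a median-of-ratios factor, 264 and 32 at a mean of at least 50 CPM, and 8260 and 3888 with no filter; the filters change how many genes are measured. Taken relative to transcript length, the counts were 480 and 476. Wells with Ttn from 10000 to 25000 CPM gave 1426 higher and 1022 lower genes, and wells with Ttn below 20000 CPM gave 847 and 670. These last 3 settings and the one without wells marked by other cell types were added after the data were seen. The latter drops wells on marker levels, among them 10000 CPM of Sln, so changes in marker lists under it are partly built in. Under the other settings (per-well means, stricter wells, thinning, 30 to 45% mitochondrial counts, the 241 wells at each end of the Ino80 order, no macrophage or fibroblast filter, and either removal of marked wells) the counts were within 1.5 times, from 1080 to 1254 higher and from 242 to 340 lower. All 27 named genes kept their direction under each setting that recomputed their ratios, except in the Ttn settings: from 10000 to 25000 CPM Rnf150 turned to -0.35, Kdr to 1.25, Hdac7 to 0.57 and Egfl7 to 0.12, and below 20000 CPM Rnf150 turned to -1.26 and Atmin to -2.03. These genes were picked as the most extreme of the same wells, and the same direction in the per-well mean was required. Their kept direction was thus largely fixed in advance and is no support for them. The Schwann marker list (1 gene measured, median -1.94) turned to 2.95 and 0.18 in the Ttn settings, and the erythroid list (-1.78) to 0.53 without wells marked by other cell types. Of 42 list medians, 5 changed sign with the total over all mouse genes and 10 with the median-of-ratios factor, each of them smaller in size than the shift. In the Ttn settings 12 changed sign each. The cause was not tested.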

Other observations

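Several transcripts outside the comparisons above also differed between the sides. Igfbp5, a secreted binding protein of insulin-like growth factors, had summed levels of 141, 215 and 525 CPM in low, middle and high wells, well medians from 33.1 CPM in the lowest to 457 CPM in the highest of 6 groups by Ino80, and rho 0.37 with Ino80 over the 964 wells. Kcnj2, which encodes an inward-rectifier channel, stood at 1.25, 2.52 and 13.0 CPM. Both were named after their values were seen.

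Among immediate early genes, Nr4a3 and Nr4a2, orphan nuclear receptors, were higher in high wells (log2 1.74 and 1.23), while Klf2 and Junb were lower (-0.82 and -0.75), and the list's median was -0.08 over 21 members. Fbxo32, a muscle ubiquitin ligase also known as atrogin-1, had well medians of 2.84, 7.79 and 50.01 CPM in low, middle and high wells (log2 1.54). Nuclear-retained RNAs did not follow their length: Malat1 had well medians of 3186, 3727 and 3545 CPM (log2 0.03), Neat1 a log2 ratio of -0.09 and Kcnq1ot1 0.14, with longest annotated transcripts of 6983, 20771 and 93092 nucleotides.

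Globin transcripts were lower in high wells (Hba-a1 -1.78, Hbb-bs -1.24), and 1 well held 76.4% of the high side's Hba-a1, a gene whose reads cannot be separated with certainty from its near copy Hba-a2. The mesothelial list (4 measured) and the T and NK cell list (2 measured) had medians of -5.25 and -5.28, with a median of 0 CPM per well on both sides. Without wells marked by other cell types these medians were -1.02 and -1.88, so their size rests on those wells. Those wells are dropped on marker levels, so the change is partly built in.

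Other lists printed once for completeness had medians of 0.23 (glycolysis), 0.22 (PPAR targets and ketone), 0.04 (intercalated disc and cytoskeleton), 0.14 (heat shock), 0.22 (integrated stress), 0.41 (p53 targets), 0.41 (hypoxia and angiogenic factors), 0.31 (autophagy), -0.08 (iron handling), -0.23 (interferon response), -0.37 (cell cycle) and -0.55 (extracellular matrix), beside 0.26 for all genes measured. The neutrophil list had a median of -1.60, and no gene of the B cell or adipocyte lists reached 5 CPM.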
